A study of Homo sapiens with 6 samples.

Results

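The genes described here build caveolae: the caveolins CAV1 and CAV2, the cavins CAVIN1 and CAVIN3, and the neck proteins EHD2 and PACSIN2. They were chosen by name. Of 8 listed symbols, 2 pairs of which are old and new names of a cavin, 6 genes were found among the 20115 genes of the authors' deposited table. The table lists CAVIN1 as PTRF and CAVIN3 as PRKCDBP. In the second deposited table, of 2014 downstream-of-gene (DoG) regions, stretches of transcription that continue past the end of a gene, 1 region belongs to these genes, that of PTRF.

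The cells were MDA-MB-231, an established human line from a triple-negative breast cancer. Of the 6 libraries, 3 came from control cells and 3 from UBE3D KD cells, in which doxycycline induced lentiviral short hairpins against UBE3D, and all were made from total RNA depleted of ribosomal RNA. For the control cells the labels name neither a hairpin nor a doxycycline treatment. Each sample is marked as pooled and separate cultures are not mentioned, so the spread behind the p-values is that of the libraries and may be technical. The series title concerns CPSF73, the endonuclease that cuts pre-mRNA at its 3' end, and how breast cancer cells migrate and invade. The design text asks which genes and readthrough transcripts changed on UBE3D depletion.

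Values per library were not analysed here. Each value below is a mean normalized count over the libraries, a log2 fold change of UBE3D KD over control, its standard error (SE) or a p-value adjusted over the whole table, all from the authors' deposited tables. A gene is said to have risen or fallen where the adjusted p was under 0.05. The deposited fold changes are shrunken toward 0, so the underlying folds can be larger. Intervals are 95% intervals computed from the log2 fold change and its SE. The depth of each library is unknown. As in any bulk sample, fewer cells of a type and less RNA per cell cannot be told apart. UBE3D itself fell by 0.80 on the log2 scale (SE 0.37, DESeq2 adjusted p = 0.00632) in the authors' deposited table, a call that was lost when the shrunken fold change over its SE was put to a Wald test (adjusted p = 0.295). That test can only weaken calls in these tables.

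Caveolae are small flask-shaped pits of the plasma membrane, rich in cholesterol and sphingolipids, that buffer membrane tension and take part in endocytosis and signalling. Caveolins are hairpin-shaped membrane proteins that form oligomeric discs in the pit, and cavins are cytoplasmic proteins that assemble into a coat around it. EHD2, an ATPase, and PACSIN2, which carries a membrane-bending F-BAR domain, sit at or near the neck, where EHD2 holds the pit at the surface. CAV1 and CAVIN1 are both needed to form caveolae in most tissues outside striated muscle. MDA-MB-231 cells are widely used to study CAV1 in migrating cancer cells.

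Of the 6 genes 4 fell, CAV1, CAV2, EHD2 and PACSIN2, and the 2 cavins did not pass the threshold, in the authors' deposited table. None rose under the authors' DESeq2 adjustment, and none lay above 0 with an unadjusted p under 0.05. For comparison, 7.93% of all genes fell and 4.62% rose in the authors' deposited table. In the 9743 genes whose mean reached 100, a level that all 6 genes exceed, 12.4% fell and 7.45% rose. The median log2 fold change of the 6 genes was -0.34, against -0.03 over all genes. The falls were unequal: CAV1 fell at least 1.5-fold, as 3.73% of all genes did, and CAV2, EHD2 and PACSIN2 each fell by less than that.

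**Figure D1:**
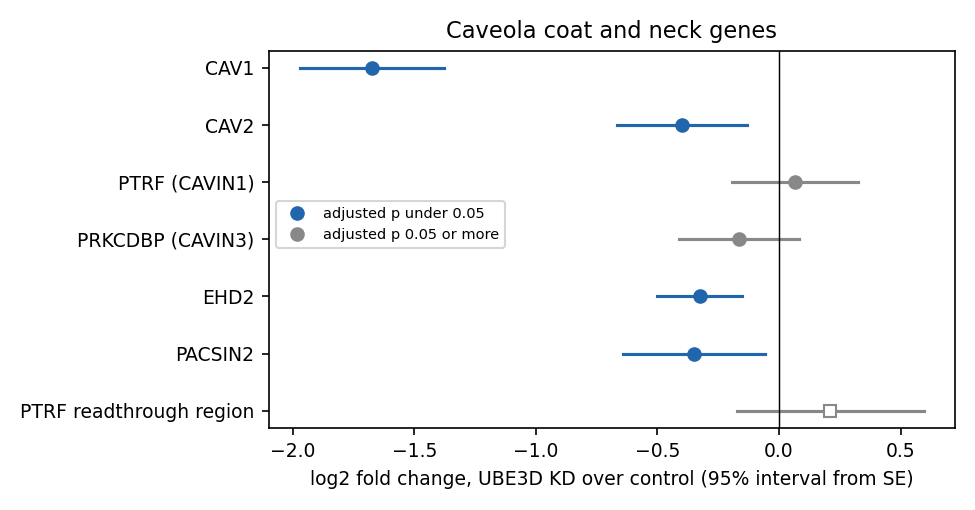
Log2 fold change of UBE3D KD over control for the 6 genes (circles) and for the readthrough region of PTRF (open square), with 95% intervals from the deposited SE; blue marks an adjusted p under 0.05. CAV1 lies at -1.68, the 3 other lowered genes between -0.40 and -0.33, and the 2 cavins have intervals that include 0.

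CAV1 encodes caveolin-1, the structural caveolin of most non-muscle cells. It lies on chromosome 7 (116524785 to 116561184, plus strand, GRCh38, GENCODE 29) and its longest coding transcript has 3 exons and 3201 bases. Its mean was 6616 normalized counts and its log2 fold change was -1.68 (SE 0.15, interval -1.97 to -1.38, DESeq2 adjusted p = 2.39e-27) in the authors' deposited table, 3.19-fold lower. Ranked from the largest fall, this was place 56 of 20115 genes, and by p-value place 36. Only 0.442% of genes had a higher mean. Among the 90 genes with a mean at least that of CAV1, 17 fell, and CAV1 had the lowest log2 fold change of the 90. If both groups weigh equally in the mean, the deposited mean and fold change correspond to about 10077 normalized counts in control and 3156 in UBE3D KD.

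**Figure D2:**
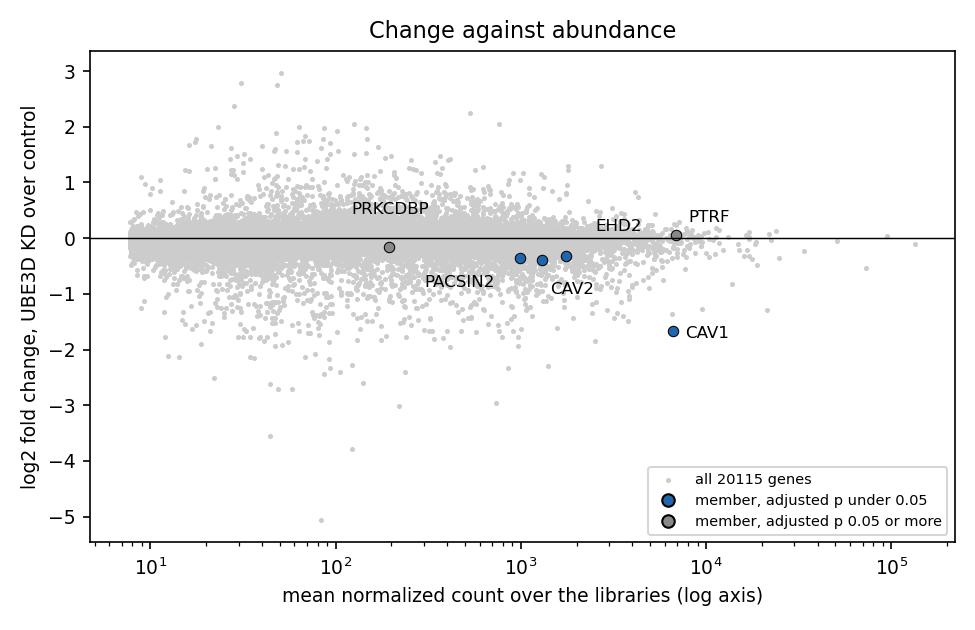
Log2 fold change of UBE3D KD over control against the mean normalized count (log axis) for all 20115 genes (grey) and the 6 caveola genes (blue, adjusted p under 0.05; dark grey, 0.05 or more). CAV1 lies below every gene of equal or higher mean, while PTRF, at a similar mean, lies at 0.07.

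CAV2 encodes caveolin-2, which depends on caveolin-1 to reach the plasma membrane. Its longest coding transcript spans 116499390 to 116508541 on chromosome 7, and the gene ends 16.2 kb before CAV1 begins, on the same strand. At a mean of 1300 normalized counts its log2 fold change was -0.40 (SE 0.14, interval -0.67 to -0.13, DESeq2 adjusted p = 0.00320) in the authors' deposited table, a level 24.2% lower. The implied group means were 1479 in control and 1121 in UBE3D KD. The call for CAV2 was lost under the Wald test (adjusted p = 0.0543). Although the genes are neighbours, their changes were unequal: CAV1 minus CAV2 was -1.28 on the log2 scale (SE 0.20, interval -1.67 to -0.88).

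Neither cavin passed the threshold. PTRF (CAVIN1, chromosome 17, 42402452 to 42423517, minus strand) encodes the main coat protein of caveolae, with a mean of 6898 normalized counts. Its log2 fold change was 0.07 (SE 0.13, interval -0.19 to 0.33, DESeq2 adjusted p = 0.733) in the authors' deposited table, an interval that runs from 0.875 to 1.25 times the control level. PRKCDBP (CAVIN3, chromosome 11, 6318946 to 6320647, minus strand) encodes a cavin first described as a binding protein of protein kinase C delta. It was the least abundant of the 6 genes, with a mean of 194.6 normalized counts, and had a log2 fold change of -0.16 (SE 0.13, interval -0.41 to 0.08, DESeq2 adjusted p = 0.292), per the authors' deposited table. That interval runs from 0.752 to 1.06 times the control level. A p-value above the threshold does not show that either cavin was unchanged. PTRF differed from CAV1 by 1.74 on the log2 scale, as CAV1 minus PTRF was -1.74 (SE 0.20, interval -2.13 to -1.35).

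The readthrough region of PTRF had a mean of 58.5 normalized counts, and 6.41% of DoG regions had a lower mean. Its log2 fold change was 0.21 (SE 0.20, interval -0.17 to 0.59, DESeq2 adjusted p = 0.266) in the authors' deposited table of DoG regions, in which 28.8% of regions passed the threshold (12.7% raised and 16.1% lowered). The region minus its gene was 0.15 on the log2 scale (SE 0.24, interval -0.32 to 0.61, treating region and gene as independent), so no difference between them was detectable. None of the other DoG regions is named for CAV1, CAV2, PRKCDBP, EHD2 or PACSIN2, alone or in a merged name, so their readthrough could not be examined here.

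Both neck genes fell by similar amounts. EHD2 (chromosome 19, 47713343 to 47743134, plus strand) had a mean of 1762 normalized counts and a log2 fold change of -0.33 (SE 0.09, interval -0.50 to -0.15, DESeq2 adjusted p = 0.000511) in the authors' deposited table, a level 20.2% lower. PACSIN2 (chromosome 22, 42835412 to 43015145, minus strand) had a mean of 988.3 and a log2 fold change of -0.35 (SE 0.15, interval -0.64 to -0.06, DESeq2 adjusted p = 0.0192), a level 21.5% lower, in the authors' deposited table. The PACSIN2 call was lost under the Wald test (adjusted p = 0.218) and at a threshold of 0.01, while that of EHD2 held under both. EHD2 minus PACSIN2 was 0.02 on the log2 scale (interval -0.32 to 0.36).

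In the 3' untranslated region (UTR), 3 of the 6 caveola genes carry the 7-base word GATTGAA, a word that an earlier scan of this same table had picked out as common among lowered genes. Its sites are shown because they fall in both caveolins, which fell, and in PTRF, which did not pass the threshold (PRKCDBP, which did not pass either, lacks the word), with the sites of their coat and neck partners SDPR (CAVIN2), ROR1 and EHD4 and of CAPZA2, a lowered neighbour of CAV1. Each line gives the sense strand from GENCODE 29 transcripts (GRCh38), with the word in capitals.
CAV1, chr7:116560565-116560593 (+): agtaataaaaaGATTGAAgtattttgctg
CAV2, chr7:116507911-116507939 (+): atataaatgatGATTGAActggaataata
PTRF, chr17:42404234-42404262 (-): caaagaggaaaGATTGAAtcctaaagggg
SDPR, chr2:191835670-191835698 (-): aatgtctccaaGATTGAAgaagaaactga
ROR1, chr1:64179303-64179331 (+): ggaattatattGATTGAAtttagactctg
EHD4 site 1, chr15:41900404-41900432 (-): gtggattaggaGATTGAAgggttgagaag
EHD4 site 2, chr15:41899013-41899041 (-): tcaaaggcacaGATTGAAgagaaaatctt
CAPZA2 site 1, chr7:116918046-116918074 (+): tgttctaagagGATTGAAaatcagtttag
CAPZA2 site 2, chr7:116918671-116918699 (+): tttttttcttgGATTGAAaagtactgaaa

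The word starts at base 1289 of the 1897-base 3' UTR of CAV1, base 1801 of 2420 in CAV2 and base 436 of 2235 in PTRF. The 3' UTRs of the 3 caveola genes without it were shorter: 1702 bases in EHD2, 1589 in PACSIN2 and 217 in PRKCDBP. Of the 3 caveola genes with the word 2 fell, and of the 3 without it 2 fell, in the authors' deposited table. Among 9 coat and neck partners, the 3 with the word were all past the threshold, ROR1 and EHD4 lowered and SDPR raised, and none of the 6 without it passed (2 of the 6, EHD1 and EHD3, had an unadjusted p under 0.05). The split also goes in part with abundance, as the 3 with the word had means of 568.5 to 688.9 normalized counts and 4 of the 6 without it had means of 12.8 to 58.3. Also without it were PACSIN3, at a mean of 253.5, and EHD1, at 2835, above the 3 with the word. Of 64 further genes of caveolae and endocytosis, these partners included, 9 hold the word. Of the 9, 5 fell (ROR1, EHD4, TGFBR2, ABCA1 and SYNJ2), 1 rose (SDPR), and BMPR2, PTDSS1 and EPN1 did not pass. Over genes whose mean reached 100 and whose 3' UTR had at least 50 bases, 11.3% of 9384 held the word. Of those with it 30.8% fell, against 10.3% of those without it. The word had been picked from this same table for being common among lowered genes, so this difference is not independent of that choice. A longer 3' UTR has more places for any word, and lengths were not compared between genes with and without GATTGAA. The other word of that scan, CTTATCT, was common among raised genes instead: 24.8% of raised and 11.9% of lowered genes of that mean and 3' UTR length held it. It was in the 3' UTR of none of the 6 caveola genes, against 12.4% of all genes so limited. At that share 6 genes are too few to show an absence. A shared word is a description of the sequence, and its part in the changes was not tested. The sequences of the hairpins are not in the sources used here, so it is unknown whether any of them, in knockdown or control cells, could pair with this word. The falls of genes that carry GATTGAA have to be read with that limit. Lowered genes with the word include CAV1, CAV2, ROR1, EHD4, TGFBR2, ABCA1, SYNJ2 and CAPZA2. Other genes with it did not fall: SDPR rose, and PTRF, BMPR2, PTDSS1 and EPN1 did not pass the threshold.

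Over all 15 pairs of the 6 genes, the interval of the difference in log2 fold change left out 0 in 8. All 5 pairs with CAV1 were among them, with CAV1 lower by 1.28 to 1.74. The other 3 set PTRF apart: CAV2 minus PTRF was -0.46 (interval -0.84 to -0.09), PTRF minus EHD2 was 0.39 (0.08 to 0.70) and PTRF minus PACSIN2 was 0.42 (0.02 to 0.81). CAV2, EHD2, PACSIN2 and PRKCDBP did not differ from each other beyond these intervals, and neither did PTRF and PRKCDBP. These intervals treat the genes as independent, although all were measured in the same libraries, and they are not adjusted for the number of pairs. The fold changes are also shrunken toward 0 by amounts that can differ between genes. This limits every difference between genes given here, that of CAV1 and CAV2 included.

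Per kilobase of the longest coding transcript, the order of mean levels was CAV1 (2067 normalized counts per kb), PTRF (1802), EHD2 (491.5), CAV2 (393.8), PACSIN2 (304.2) and PRKCDBP (165.7). The spread of these levels over libraries is not known, so neighbours in the order cannot be tested. From the implied group means, the level of CAV1 per kb was 1.79 times that of PTRF in control and 0.535 times in UBE3D KD. The same ratio of CAV1 to CAV2 was 7.03 in control and 2.90 in UBE3D KD. These ratios have no spread over libraries, so the order of CAV1 and PTRF within a group was not tested.

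Genes whose log2 fold change lay nearest to those of CAV1, CAV2 and PACSIN2, for means from 100 up and over this 1 comparison, were the following. For CAV1 they were G0S2 (-1.67), MBTPS2 (-1.68) and CD82 (-1.67) in the authors' deposited table, all within 0.0044 of it. For CAV2 they were PARD6B, SETD8 and ZNF175, and for PACSIN2 they were DCUN1D3, CALU and GCNT1. Likeness in 1 comparison is a matter of size only.

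Paralogues and partners of the coat and neck went both ways. Of 9 such genes 2 fell and 1 rose in the authors' deposited table, with a median log2 fold change of 0.04. SDPR (CAVIN2), a cavin that shapes the caveola membrane, rose by 0.59 (SE 0.17, DESeq2 adjusted p = 0.000416) at a mean of 568.5 normalized counts. ROR1, a receptor-like kinase described as a scaffold for CAV1 and CAVIN1, fell by 0.74 on the log2 scale (SE 0.11, DESeq2 adjusted p = 2.44e-10) at a mean of 688.9 in the authors' deposited table. EHD4, a paralogue of EHD2, fell by 0.48 (SE 0.17, DESeq2 adjusted p = 0.00336), and its DoG region fell by 0.70 (SE 0.13, adjusted p = 2.90e-07), in the authors' deposited tables. The call for the EHD4 gene was lost under the Wald test (adjusted p = 0.0769).

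SDPR stood apart from both other cavins: SDPR minus PTRF was 0.53 (interval 0.10 to 0.95) and SDPR minus PRKCDBP was 0.76 (0.34 to 1.17) (these and the following pairs were chosen after their values were seen). Among the EHD genes, the authors' deposited table has EHD1 at 0.18 (DESeq2 adjusted p = 0.192) and EHD3 at 0.28 (adjusted p = 0.193). EHD2 minus EHD1 was -0.51 (interval -0.80 to -0.22), EHD2 minus EHD3 was -0.61 (-1.15 to -0.07) and EHD2 minus EHD4 was 0.16 (-0.22 to 0.54). PACSIN2 minus PACSIN3 was -0.41 (-0.81 to -0.02), and the authors' deposited table has PACSIN3 itself at 0.06 (adjusted p = 0.746). PACSIN2 minus PACSIN1 was -0.27 (-0.87 to 0.34), an interval that includes 0. The muscle forms CAV3 and MURC (CAVIN4) and the neuronal PACSIN1 had means of 12.8, 41.1 and 58.3 normalized counts, and none of the 3 passed the threshold.

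Of 12 genes for scission, actin linkage and the kinases that act on caveolae, 4 fell and 1 rose in the authors' deposited table, with a median log2 fold change of -0.18. PRKCA, which encodes protein kinase C alpha, fell by 0.39 (SE 0.11, DESeq2 adjusted p = 0.000250), and FYN, a Src-family kinase that can phosphorylate caveolin-1, rose by 0.43 (SE 0.12, adjusted p = 0.000455). The dynamin gene DNM1 fell by 0.56 (SE 0.21, DESeq2 adjusted p = 0.00352) and the formin gene DIAPH1 by 0.42 (SE 0.15, adjusted p = 0.00361) in the authors' deposited table. The fourth that fell was ABL1, which encodes a kinase tied to stress fibres and caveolae, at -0.30 (SE 0.10). Under the Wald test DNM1 (adjusted p = 0.0982) and DIAPH1 (adjusted p = 0.0657) lost their calls. The authors' deposited table has DNM2, the dynamin of most cells, at 0.05 (DESeq2 adjusted p = 0.774) and the filamin gene FLNA at 0.02 (adjusted p = 0.926).

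Flotillins, which mark another kind of membrane microdomain, were near 0: FLOT1 was at 0.06 (SE 0.13) and FLOT2 at -0.03 (SE 0.10) in the authors' deposited table. In that list of 4 genes STOM, which encodes stomatin, fell by 0.33 (SE 0.13, DESeq2 adjusted p = 0.0153), and none rose, also at an unadjusted p under 0.05. Of 10 receptors and enzymes described in caveolae, 1 fell and 1 rose, with a median of -0.03. TGFBR2, a TGF-beta receptor, fell by 1.61 (SE 0.13, DESeq2 adjusted p = 1.01e-35), and PDGFRB rose by 0.96 (SE 0.34, adjusted p = 0.00110) at a mean of 102.0, in the authors' deposited table. Under the Wald test STOM (adjusted p = 0.162) and PDGFRB (adjusted p = 0.0695) lost their calls. EGFR was at -0.05 (SE 0.10) and INSR at 0.03 (SE 0.09) in the authors' deposited table.

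Of 7 genes that supply or move membrane lipids, 3 fell, and none rose, against 1 above 0 at an unadjusted p under 0.05, in the authors' deposited table. ABCA1, the cholesterol exporter, fell by 0.98 (SE 0.12, DESeq2 adjusted p = 1.55e-16), NPC1, which moves cholesterol out of lysosomes, by 0.69 (SE 0.13, adjusted p = 4.19e-07), and SGMS2, a sphingomyelin synthase, by 0.55 (SE 0.15, adjusted p = 0.000268). The DoG region of NPC1 fell by 0.29 (SE 0.10, DESeq2 adjusted p = 0.00896) in the authors' deposited table. Region minus gene was 0.41 for NPC1 (interval 0.08 to 0.74). Intervals of this kind treat a region and its gene as independent, although both were measured in the same libraries. The fold changes of genes and of regions may also be shrunken to different degrees. The lowered gene ABL1 had a region at 0.22 (DESeq2 adjusted p = 0.146), with a difference of 0.52 (0.18 to 0.85). For EHD4, FLOT1, ANXA2, EGFR, CLTC and EPN1 the interval of this difference included 0. The median of the lipid list was -0.18.

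Clathrin-mediated endocytosis, the other main coated route into the cell, had 2 of 22 genes lowered and 2 raised in the authors' deposited table, with a median of 0.02. The phosphoinositide phosphatase gene SYNJ2 fell by 0.94 (SE 0.12, DESeq2 adjusted p = 5.61e-14) and the sorting nexin gene SNX9 by 0.29 (SE 0.12, adjusted p = 0.0283). The adaptor gene DAB2 rose by 0.80 (SE 0.11, DESeq2 adjusted p = 3.32e-12) and AP2A1, an AP-2 subunit gene, by 0.24 (SE 0.09, adjusted p = 0.0163) in the authors' deposited table. SNX9 (adjusted p = 0.215) and AP2A1 (adjusted p = 0.0829) lost their calls under the Wald test. The clathrin chains CLTA (0.03), CLTB (0.34) and CLTC (-0.26) did not pass the threshold. Over all 6 lists beyond the caveola genes proper, 13 of 64 genes fell and 5 rose. The shares over all genes were 7.93% lowered and 4.62% raised, and over genes whose mean reached 100 they were 12.4% and 7.45%. The lists were not tested against these shares.

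**Figure D3:**
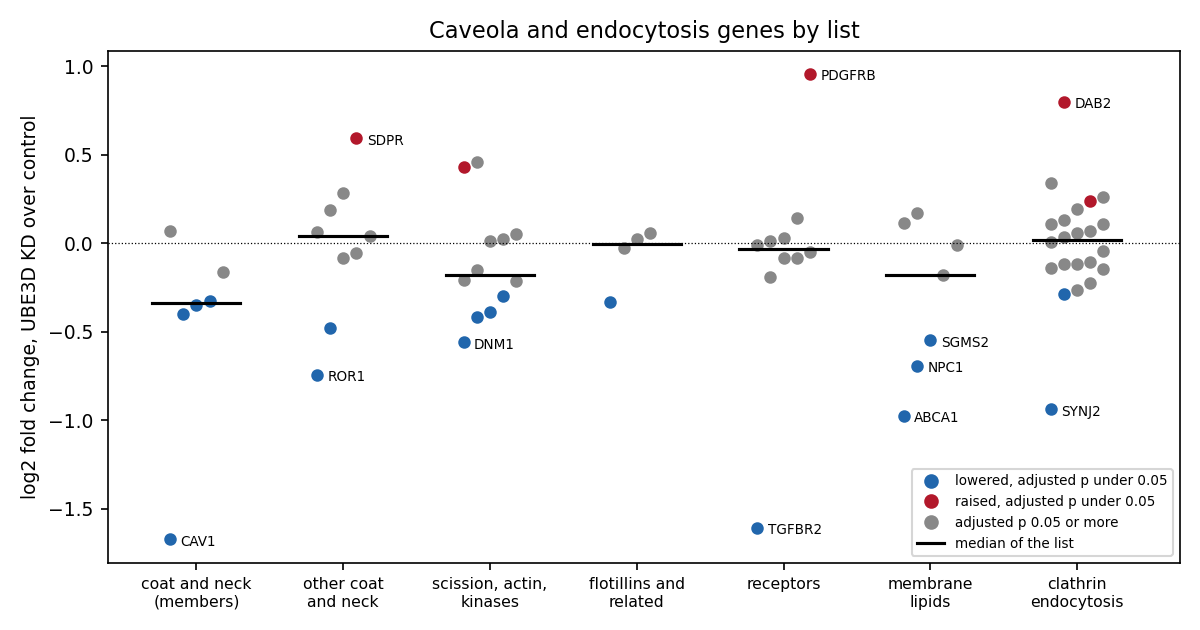
Log2 fold change of UBE3D KD over control for each gene of the 6 caveola genes and of 6 further lists, with list medians as bars; blue and red mark an adjusted p under 0.05. The median is -0.34 for the caveola coat and neck genes and lies between -0.18 and 0.04 for the others.

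Near the caveolins on chromosome 7, 1 further gene fell. Within 500 kb of CAV1, 2 of 9 genes fell, CAV2 and CAPZA2, and none rose, in the authors' deposited table. At an unadjusted p under 0.05 the DESeq2 values gave 4 below 0 and 0 above. CAPZA2, which encodes an actin-capping subunit, starts 249.9 kb past the end of CAV1 and had a log2 fold change of -2.29 (SE 0.14, DESeq2 adjusted p = 8.01e-58) at a mean of 1405. Between them lies MET, the gene of the hepatocyte growth factor receptor, at -0.25 (SE 0.14, DESeq2 adjusted p = 0.0923) in the authors' deposited table. TES, on the other side of CAV2, was at -0.04 (SE 0.10, adjusted p = 0.829). Along the chromosome, the 2 large falls therefore flank a gene that missed the threshold.

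**Figure D4:**
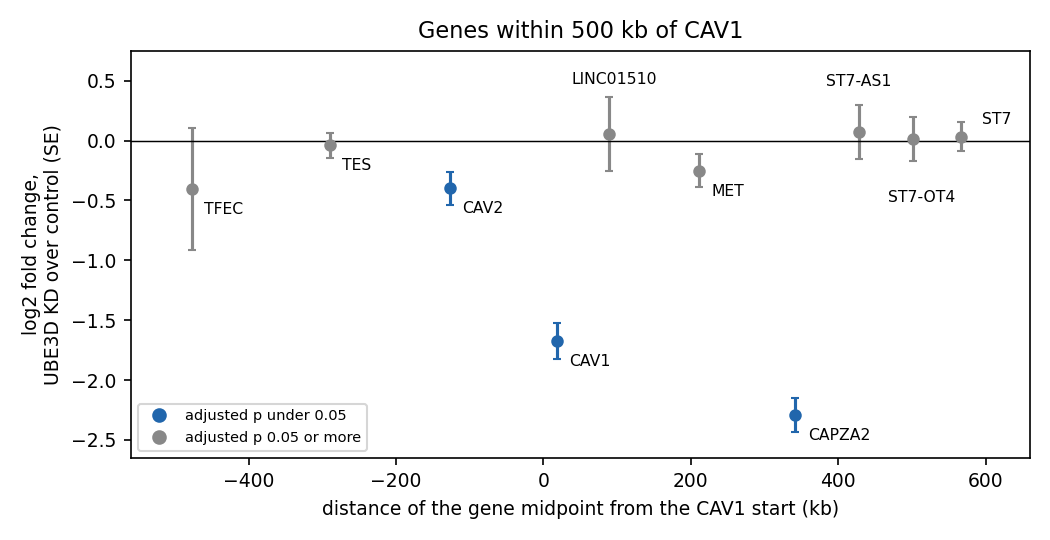
Log2 fold change (error bars, SE) of the genes within 500 kb of CAV1 against the distance of their midpoint from the CAV1 start. CAV1 (-1.68) and CAPZA2 (-2.29) lie far below MET (-0.25) and TES (-0.04), and CAV2 lies at -0.40.

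Around all 6 genes, 113 other genes of the table lay within 500 kb, of which 2.65% fell and 4.42% rose, near or below the shares over all genes. Besides CAPZA2 they were, near PRKCDBP, SMPD1 (-0.28) and TPP1 (-0.36), which fell, and DNHD1 (0.82), TAF10 (0.59) and C11orf42 (0.84), which rose, in the authors' deposited table. Near PTRF, AOC2 rose (0.74), and near EHD2, C5AR1 rose (1.73, SE 0.71, at a mean of 17.4). Of these, CAPZA2, DNHD1 and TAF10 kept their calls under the Wald test. No gene near PACSIN2 passed with DESeq2, and 1 lay above and 1 below 0 at an unadjusted p under 0.05. ARFGAP3 overlaps PACSIN2 on the same strand and was at -0.05 (SE 0.11) in the authors' deposited table. Also on the same strand, a lincRNA gene overlaps EHD2, another noncoding gene overlaps CAV2 and a pseudogene overlaps PACSIN2, and strand alone cannot separate their reads. Noncoding genes annotated on the opposite strand overlap CAV1, CAV2 and PRKCDBP. Whether the authors' counting used the strand is not given in the sources, so reads of such pairs may not be told apart.

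Markers of the line had means from 595.8 (PLAUR) to 11376 (AXL) normalized counts, with VIM at 7835. The luminal breast markers were split. ESR1, PGR, FOXA1 and GATA3 had means of 22.2, 50.2, 9.74 and 80.0, and the keratin genes KRT8, KRT18 and KRT19 had means of 3626, 2490 and 1388, above that of PLAUR. None of these 7 passed the threshold with DESeq2, and 2 lay below 0 at an unadjusted p under 0.05. Of the 5 line markers, 3 fell: MSN (-0.62), VIM (-0.34) and CD44 (-0.26) in the authors' deposited table. Over all genes whose mean reached 100, as those of the 5 did, 12.4% fell, and the markers were not tested against this share. Of 23 markers of the cell types richest in caveolae (endothelium, fat, muscle and fibroblasts), the highest mean was 168.2 and the summed mean 1045 normalized counts, against 6616 for CAV1 alone. In the authors' deposited table LUM rose (1.42, SE 0.31) and MYH1 fell (-0.66, SE 0.68), the other 21 did not pass, the MYH1, VIM and CD44 calls were lost under the Wald test (adjusted p = 1.00, 0.343 and 0.264), and FABP4 is not among the rows used. Implied group means of these markers were not computed here, and their part in the results was not tested.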

How the data were processed

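Stranded paired reads were made from total RNA without ribosomal RNA, using random primers, per the labels' protocols. Tools named in the submitters' processing notes are cutadapt 1.8.1, STAR 2.5.2b and DESeq2, with the build hg38. The annotation, counting tool and calling of DoG regions were not given in the sources. Per the file headers, the authors deposited for each of 20115 genes and 2014 DoG regions a log2 fold change with SE, a mean normalized count, treated here as a signal, and a raw and an adjusted p-value. Recomputing a Benjamini-Hochberg adjustment over each table gave the deposited adjusted values. The fold changes are shrunken: the ratio of change to SE was smaller than the z-score of its p-value in 20112 of 20112 gene rows (median 0.64 of it).

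Counts, intervals, differences and ranks were computed in Python 3.11.15 with pandas 2.3.3, scipy 1.17.1 and numpy 2.4.6. Implied group means were solved from the mean and fold change. Positions, lengths and 3' UTRs came from GENCODE 29, matched for 19022 symbols, 591 of them by synonyms from RefSeq or current names. The Wald test was tested on simulated data. Named genes were the 6 caveola genes, UBE3D, up to 4 genes per list past the threshold (or 2 others), changed neighbours within 500 kb and the 3 nearest genes in fold change (those of EHD2 are not reported here); others named were chosen after their values were seen. Genes and lists were chosen with earlier results of these data known. Alternatives were other thresholds, minimum counts, a shift to a median of 0, the Wald test, a 1.5-fold minimum and other windows.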

Additional observations from a re-analysis of the deposited data

How the results depend on the processing

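CAV1 kept its call under all 7 alternatives (adjusted p from 1.19e-27 to 5.47e-26). Of the 4 lowered caveola genes, 2 were still called by the Wald test, with or without a shift to a median of 0 (0.0005 on the log2 scale), and 1 with a 1.5-fold minimum. The adjusted p ranged from 0.00184 to 0.0543 for CAV2, 0.000282 to 0.00574 for EHD2 and 0.0115 to 0.218 for PACSIN2. Directions were not put to a test, since no alternative moved a fold change by more than the shift. Under the Wald tests the lowered genes came to 1 for coat partners, 2 for scission, actin and kinase genes, 0 for flotillins and 1 for clathrin genes, and the raised genes to 0 for receptors and 1 for clathrin genes. With a 1.5-fold minimum 1 coat partner, 0 scission genes, 0 flotillin genes and 1 clathrin gene stayed lowered, and 0 scission genes and 1 clathrin gene raised. At a threshold of 0.01, 0 flotillin genes and 1 clathrin gene were lowered and 1 clathrin gene raised. At 0.1, 4 clathrin genes were lowered and 4 raised, and 2 scission genes were raised, as they were with minimum means of 50 and 100. Beside 3 lowered and 5 raised neighbours within 500 kb, 2 were raised within 250 kb, and 10 were lowered and 9 raised within 1000 kb. The Wald test uses shrunken changes and so calls fewer genes, and a 1.5-fold minimum or a stricter threshold can only remove calls. No paired analysis was possible because the tables carry no values per library, and leaving out single libraries was not run for the same reason. Depth is unknown, so precision rests on the SE alone.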
